A study of Mus musculus with 8 samples.

Results

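The genes described here belong to 2 imprinted loci of the mouse, H19-Igf2 on chromosome 7 and Dlk1-Meg3 on chromosome 12, together with the receptors that bind the growth factor IGF2 and the proteins that bind its mRNA. The selection rule named 10 genes, and 8 of them had a row in the gene-level count table of 23649 genes: H19, Igf2, Dlk1, Igf1r, Igf2r, Igf2bp1, Igf2bp2 and Igf2bp3. Meg3 and Rian were not analysed here, so the Dlk1-Meg3 locus rests on Dlk1. The members were selected on measured values of these same lines, their levels in CPM (a gene's reads scaled to the TMM-normalized size of the library), and the levels, fold changes and correlations below are therefore descriptions.

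The data are bulk 3′ mRNA sequencing of 8 cell lines from murine small cell lung cancer (SCLC), an aggressive lung tumor that usually has neuroendocrine features. The 4 RP lines came from tumors lacking Rb1 and Trp53, and the 4 RPC lines came from tumors that lacked Casp8 as well. In all mice the floxed alleles were recombined by inhaled adenoviral Cre under the CMV promoter, which is not restricted to one lung cell type, so Rb1 and Trp53 are targeted in the controls too. Lines are named here by genotype and by the replicate number of the labels, RP1 to RP4 and RPC1 to RPC4, and each stands for 1 tumor grown in culture, so the spread between lines is a spread between tumors.

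Total counts ranged from 7128455 to 10169996 per line, so that 1 CPM before TMM scaling corresponded to 7.13 to 10.2 reads. A filter on low counts kept 12739 genes, and all 8 members passed it. Counts from the 3′ end of a transcript do not check a deletion of exons upstream of it. Casp8 itself was at 3.80 to 17.2 CPM in RPC lines and at 10.8 to 67.2 CPM in RP lines, with overlap between the groups. Rb1 was between 0.155 and 10.9 CPM and Trp53 between 0 and 1.004 CPM over all lines. The first principal component, with 56.7% of the variance, did not separate the genotypes but set RP1, RP3 and RPC2 apart from the other lines. Summed CPM of the neuroendocrine markers (12 of 12 in the table) spanned 89.0 to 2591 in RP and 767 to 5128 in RPC lines, and that of non-neuroendocrine markers (9 of 12 in the table, among them Rest and Yap1) spanned 33.8 to 4617 in RP and 517 to 5907 in RPC lines. Immune markers (3 of 5) summed to at most 5.31 CPM and endothelial markers (4 of 5) to at most 8.22 CPM in any line, with Ptprc, Cdh5 and Emcn at 3 counts or fewer throughout. In bulk RNA, fewer cells of a type and less RNA per cell cannot be told apart.

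At imprinted loci 1 parental allele is silenced. On the maternal chromosome the insulator protein CTCF binds an imprinting control region upstream of H19 and keeps shared enhancers from the Igf2 promoters, and H19, a long noncoding RNA, is transcribed. On the paternal chromosome this region is methylated, CTCF does not bind, and Igf2 is transcribed instead. Dlk1, a transmembrane relative of Notch ligands, is a paternally expressed coding gene of the other locus. IGF2 signals to growth through the IGF1 receptor, whereas the IGF2 receptor takes IGF2 up for degradation. The IGF2BP proteins bind and stabilise many mRNAs, are mostly fetal, and are textbook targets of the let-7 miRNA family.

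Sequence upstream of H19 is shown because the imprinting control region described above lies there. H19 lies at chr7:142129262-142133957 and Igf2 at chr7:142204503-142220694, both on the minus strand of GRCm39. The window was the 5000 bases upstream of the middle of all annotated start sites of each gene, on both strands. A single fixed form of the CTCF motif, CCGCGNGGNGGCAG, was searched there. It was found at 3 places upstream of H19, 2167, 2622 and 3892 bases from a start at position 142131879. The matches were at chr7:142134046-142134059, chr7:142134501-142134514 and chr7:142135771-142135784, all on the minus strand. They are written along that strand with the motif in capitals and 8 bases on either side.
H19 upstream match 1: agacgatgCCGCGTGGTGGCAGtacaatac
H19 upstream match 2: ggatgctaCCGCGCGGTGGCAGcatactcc
H19 upstream match 3: gggagttgCCGCGTGGTGGCAGcaaaatcg
Of the 23494 genes of the table that could be placed on the genome, 24 (0.102%) held this form in the window. H19 was the 1 gene with 3 or more matches to it. The form was chosen for this control region, so finding it at H19 is a description and no test. Other forms of the CTCF motif were not searched, so these shares do not describe CTCF motifs in general. A match is a description of the sequence and was not measured as binding here.

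The mRNA-binding genes shared another sequence feature that the rule did not use. The seed of let-7a (bases 2 to 8, in capitals) pairs with the bases CTACCTC, which occurred in the annotated 3′ UTR of 11.2% of the 15628 coding genes examined (1750 genes).
mmu-let-7a-5p: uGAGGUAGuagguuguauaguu
Igf2bp1 held 4 such sites in 6337 bases of 3′ UTR, a number reached by 0.064% of all genes and by 0.296% of the 675 genes with a 3′ UTR of similar length. Igf2bp2 held 1 site in 1784 bases and Igf2bp3 held 1 site in 2132 bases, against shares of 13.1% and 13.9% of genes of similar length with any site. To let the sites be compared, 4 of the 6 are shown in mRNA sense with the seed match in capitals, 2 of Igf2bp1 and those of Igf2bp2 and Igf2bp3. The matches lie at chr11:95850184-95850190, chr11:95849590-95849596, chr16:21878224-21878230 and chr6:49063722-49063728 in the same order, all on the minus strand of GRCm39.
Igf2bp1 site 2: tgctattaaCTACCTCagcccc
Igf2bp1 site 3: atggatgaaCTACCTCagtcct
Igf2bp2 site 1: aaataaaagCTACCTCaggtgt
Igf2bp3 site 1: tttactcaaCTACCTCaggtat
The seed match was followed by an A in 5 of the 6 sites. Igf1r held 2 sites, Igf2r held 1, and the annotated 3′ UTRs of Igf2 and Dlk1 held 0. Mature miRNAs were not measured in these libraries.

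H19 was low in every RP line and higher in every RPC line. It was at 0, 1.02, 0.702 and 1.52 CPM in RP1 to RP4 and at 3.41, 4.08, 167 and 28.6 CPM in RPC1 to RPC4, with group means of 0.808 ± 0.634 and 50.8 ± 78.5 CPM (SD, n = 4 each). RPC3 alone held 81.0% of the H19 CPM summed over lines, and the RP lines had 0 to 12 counts each. The groups did not overlap, which was true in this direction for 0.989% of all genes tested (126 of 12739). In the edgeR quasi-likelihood fit over all genes the log2 fold change of RPC over RP was 5.96 ± 1.60 (SE, n = 4 and 4), with an unadjusted p of 0.00548 and an adjusted p of 1. With DESeq2 the same fold change had an adjusted p of 0.0156, among 11 of 22312 genes (0.0493%) called higher. Without RPC3 the log2 fold change was 3.88, and without RPC3 and RPC4 it was 2.18 ± 1.19 (SE, edgeR unadjusted p = 0.113).

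Igf2 varied between lines of both genotypes. Its CPM were 272.5, 6.49, 159 and 11.7 in RP1 to RP4 and 25.4, 9.56, 502 and 3.26 in RPC1 to RPC4. The lines RP1, RP3 and RPC3 stood above the rest, and RPC4 had the lowest value with 21 counts. The highest line exceeded the lowest by 154-fold, and the groups overlapped. The log2 fold change was 0.26 ± 1.63 (SE, edgeR adjusted p = 1) and it was -3.13 without RPC3, the line with the most Igf2, and -0.12 and -0.10 without RP2 and RP4.

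Igf2os, an antisense transcript at chr7:142213430-142224093 on the plus strand that overlaps Igf2, was counted as a separate gene. Its CPM were 45.2, 1.02, 38.3 and 1.01 in RP1 to RP4 and 2.71, 0.835, 7.99 and 0 in RPC1 to RPC4. RP1 and RP3 had the most Igf2os, and RPC3, which had the most Igf2, had less of the antisense than either of them. Of the counts assigned to either gene, Igf2os took 14.2% in RP1 and 19.4% in RP3 but 1.57% in RPC3 (exact 95% binomial interval 1.24 to 1.96%). In the other 5 lines its share was 0 to 13.5% of 21 to 280 counts. The interval covers counting error only, and whether reads were assigned by strand is not given in the sources used here, so reads of the overlap may have been split between both genes.

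Dlk1, at chr12:109418749-109429262, was nearly silent in RP lines. Its counts were 0, 13, 0 and 1 in RP1 to RP4 and 147, 30, 304 and 4 in RPC1 to RPC4, which gave 0, 1.32, 0 and 0.126 CPM against 14.8, 2.78, 32.0 and 0.621 CPM. RPC4 fell below RP2, so the groups overlapped. The log2 fold change of 5.05 ± 1.68 (SE) depends on the near-absence of counts in RP1, RP3 and RP4, and its edgeR adjusted p was 1. Other genes near this locus had few reads. Within 500 kb of Meg3 the table held 5 genes, of which Dlk1 passed the count filter. Gm37899 and B830012L14Rik, at higher coordinates than Rtl1, had 22 and 6 counts in RPC3, the line with the most Dlk1, and at most 1 count in any other line. Dio3, a thyroid-hormone deiodinase at the far end of the same imprinted cluster, had 18 counts in RPC1, 11 in RPC4 and 0 in the remaining lines.

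**Figure D1:**
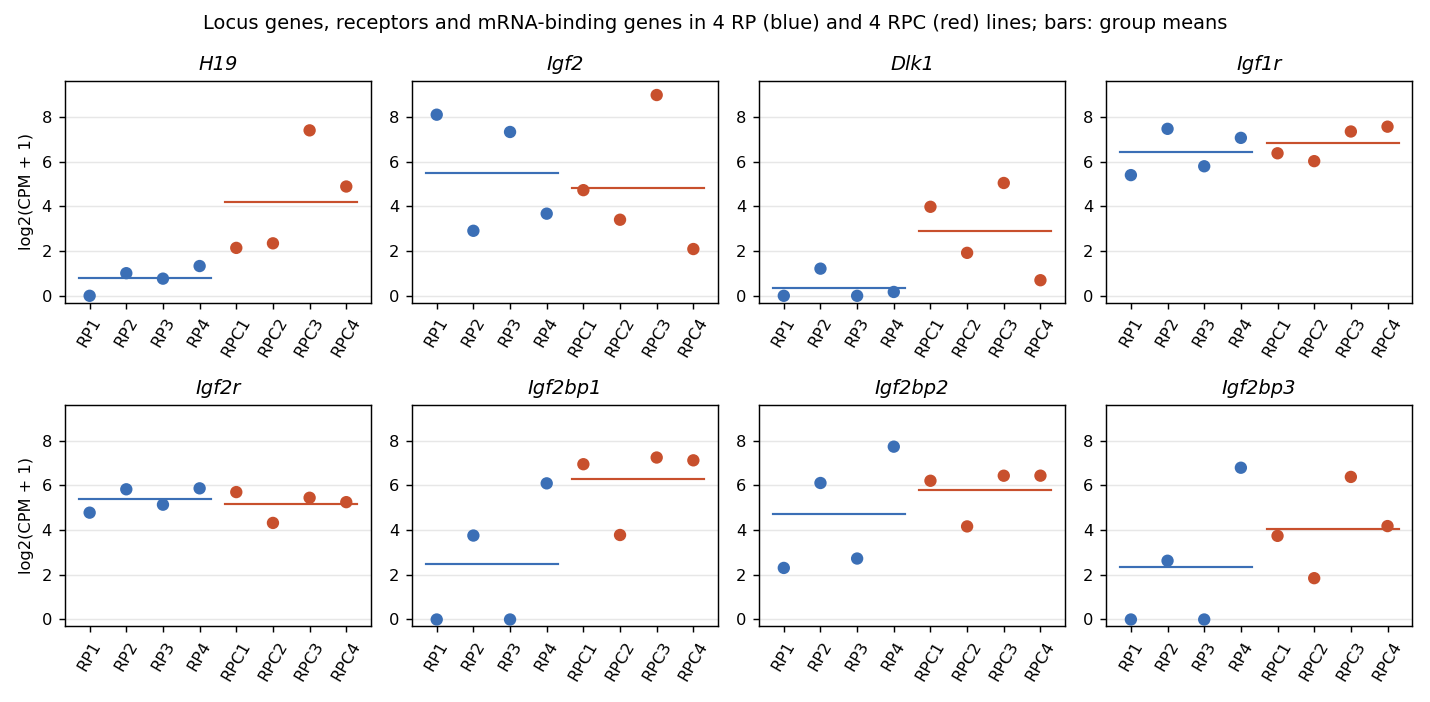
Level of each of the 8 genes in every line, as log2(CPM + 1) on the vertical axis, with RP lines in blue, RPC lines in red and a bar at each group mean. The 4 H19 points of RPC lines (3.41 to 167 CPM) lie above those of RP lines (0 to 1.52 CPM), whereas for the other 7 genes the groups overlap.

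H19 and Igf2 did not move together over the 8 lines. Pearson's r between H19 and Igf2, on the log2(CPM + 1) scale, was 0.13 (Spearman's rho -0.17), and 42.0% of genes were at least as close to H19. RPC3 had the most of both transcripts. Leaving that line out gave -0.72, and without RPC3 and RPC4, the lines farthest from the median of H19, it was -0.69. The share of H19 in the summed counts of H19 and Igf2 showed the same spread between lines. It was 0% in RP1 (exact 95% binomial interval up to 0.148%) and 0.439% in RP3, the RP lines with high Igf2. It was 25.0% in RPC3 and 89.8% in RPC4, where Igf2 was lowest. In the remaining 4 lines it was 11.4 to 29.9%.

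Igf2 and its antisense transcript did move together, with r of 0.88, and 16 of the other genes kept by the filter were closer to Igf2. Without RPC3 this r was 0.99. H19 and Dlk1, on different chromosomes, had an r of 0.69 (rho 0.78) and 3.92% of genes were as close to H19. This fell to 0.37 when RPC1 and RPC3, the lines with the most Dlk1, were left out. Igf2 and Dlk1 had an r of 0.26. Each r rests on 8 lines, which also share the split into 4 RP and 4 RPC lines, and is given with no test.

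**Figure D2:**
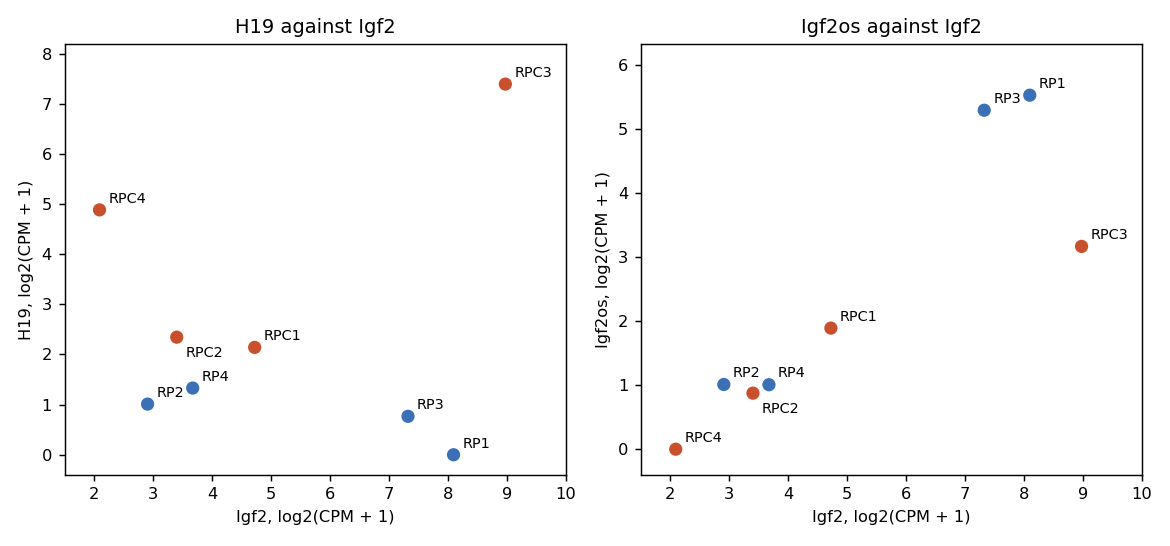
H19 (left) and Igf2os (right) against Igf2 in the 8 lines, all as log2(CPM + 1), with RP lines in blue and RPC lines in red. RPC3 lies at the top right on the left side and below RP1 and RP3 on the right side, while RP1 and RP3 combine high Igf2 with almost no H19.

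The genes around H19 also differed from each other. Of 18 genes of the table within 500 kb of H19, 12 passed the filter, including H19, Igf2 and Igf2os. Lsp1, the gene of an actin-binding protein best known from leukocytes, had an r of 0.93 with H19 and 23.97 CPM in RPC3 against 0 to 6.67 CPM elsewhere. The long noncoding RNA R74862 followed with 0.72, the lysosomal protease gene Ctsd with 0.62, Ifitm10 with 0.50, the tetraspanin gene Cd81 with 0.40 and Syt8 with 0.37. Mrpl23, a mitochondrial ribosomal protein gene next to H19, was at 0.01 with H19 and at 0.83 with Igf2, on 8 to 23 counts per line. Dusp8 and Tssc4 had negative values of -0.22 and -0.35 with H19.

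The receptors varied far less than their ligand. Igf1r, at chr7:67601518-67883416, was at 41.1, 175.5, 54.3 and 132 CPM in RP1 to RP4 and at 81.7, 63.8, 161.5 and 188 CPM in RPC1 to RPC4. Igf2r, at chr17:12901293-12988614, was at 26.4, 55.5, 34.1 and 57.2 CPM in RP1 to RP4 and at 50.8, 18.9, 42.5 and 36.9 CPM in RPC1 to RPC4. Over the 8 lines the SD on the log2 scale was 0.84 for Igf1r and 0.54 for Igf2r, against 0.56 for the median gene and 2.62 for Igf2. The log2 fold change was 0.29 ± 0.54 for Igf1r and -0.22 ± 0.38 for Igf2r (SE, edgeR adjusted p = 1 for each), and the groups overlapped for both. The 2 lines with the lowest Igf1r, RP1 and RP3, were among the 3 with the highest Igf2. Pearson's r with Igf2 was -0.45 for Igf1r and -0.17 for Igf2r. Airn, the antisense transcript through which Igf2r is imprinted, had an r of -0.05 with Igf2r and stayed between 5.93 and 22.2 CPM.

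The 3 mRNA-binding genes varied together across lines. Igf2bp1, at chr11:95847989-95896911, was at 0, 12.5, 0 and 66.9 CPM in RP1 to RP4 and at 122, 12.7, 150.2 and 138 CPM in RPC1 to RPC4. Igf2bp2, at chr16:21877759-21982499, was at 3.94, 67.7, 5.61 and 211 CPM in RP1 to RP4 and at 72.6, 16.9, 85.1 and 85.2 CPM in RPC1 to RPC4. Igf2bp3, at chr6:49062144-49192447, was at 0, 5.18, 0 and 109 CPM in RP1 to RP4 and at 12.4, 2.60, 81.9 and 17.1 CPM in RPC1 to RPC4. RP1 and RP3 were the lowest lines for all 3 genes, and RPC2 was the next lowest for Igf2bp2 and Igf2bp3. RP4 had the most Igf2bp2 and Igf2bp3, whereas RPC3 had the most Igf2bp1.

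Pearson's r was 0.90 between Igf2bp1 and Igf2bp2, 0.88 between Igf2bp1 and Igf2bp3 and 0.93 between Igf2bp2 and Igf2bp3. As many as 2.48% of genes were at least as close to Igf2bp1 as Igf2bp2 was, and 3.45% as Igf2bp3 was, so Igf2bp1 shared its pattern with many other genes. Without RP1 and RP3 the values for the first and the third pair were 0.57 and 0.83, and for Igf2bp1 with Igf2bp3 0.69. Centred on the mean of each genotype they were 0.99, 0.94 and 0.92. Between genotypes the log2 fold changes were 2.41 ± 1.75 for Igf2bp1, -0.15 ± 1.14 for Igf2bp2 and -0.004 ± 1.93 for Igf2bp3 (SE, edgeR adjusted p = 1 for each). The Igf2bp3 value was 4.04 without RP4, the RP line with the most of it.

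**Figure D3:**
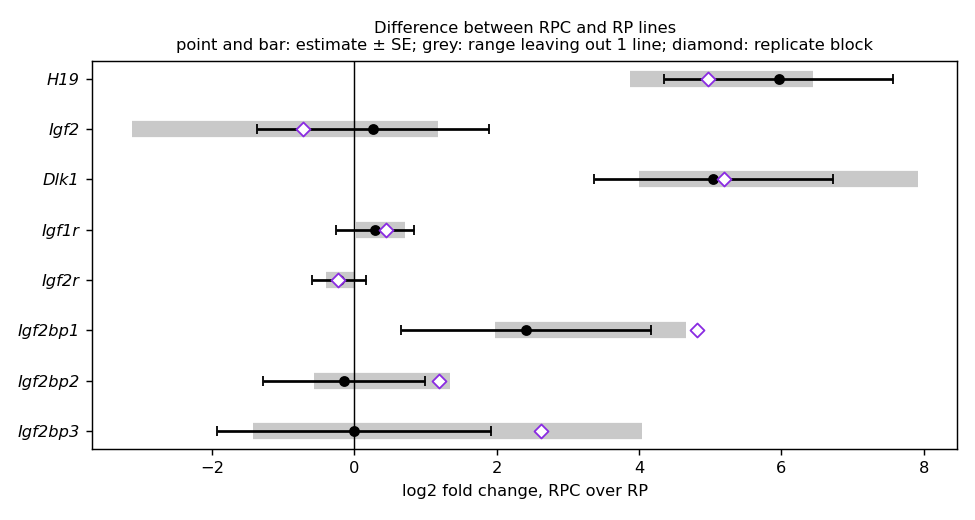
Log2 fold change of RPC over RP lines for each gene (horizontal axis), as the edgeR estimate with its SE (black), the range when 1 line at a time was left out (grey bar) and the value with the replicate number as a block (diamond). The H19 estimate of 5.96 stays above 0 throughout (3.88 to 6.44), while the grey bar of Igf2 runs from -3.13 to 1.18.

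A gene counted as called when its adjusted p was below 0.05 and its log2 fold change exceeded 0.58 in size. In the edgeR fit 0 of the 8 members were called, as were 0 of all 12739 genes (0%). At an unadjusted p under 0.05, 213 of the 12739 genes passed in that fit. This is below the share of 0.05 that uniform p-values would give. DESeq2 called 13 genes, 11 higher and 2 lower, with H19 among them.

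The mRNA-binding genes were at their lowest in lines with the least of the non-neuroendocrine markers. Rest, the repressor of neuronal genes, was at 0.438 and 0.501 CPM in RP1 and RP3, at 46.0 CPM in RPC2 and at 167 to 313 CPM in the other lines. The order of the 8 lines by Rest was the same as by Igf2bp2 (rho 1.0), and its r was 0.95 with Igf2bp1, 0.96 with Igf2bp2 and 0.87 with Igf2bp3. Yap1, the Hippo pathway coactivator, had an r of 0.84 to 0.94 with these genes. Chga, the secretory granule protein chromogranin A, had an r of -0.70 with Igf2bp1, -0.78 with Igf2bp2 and -0.90 with Igf2bp3. It was at 366.6 to 3542 CPM in RP1, RP3 and RPC2 and at 0 to 195 CPM in the other lines. The sum of the 12 neuroendocrine markers did not follow Chga in every line. It was 2591, 1897, 2169 and 89 CPM in RP1 to RP4 and 995, 5128, 1216 and 767 CPM in RPC1 to RPC4. RPC3 thus had a high sum with Chga at 0.105 CPM. The mean log2 level of the 12 markers had an r of -0.78 with Igf2bp1, -0.83 with Igf2bp2 and -0.95 with Igf2bp3. Igf1r took the same direction, with an r of 0.85 with Rest and -0.84 with Insm1, a neuroendocrine transcription factor. The part of the neuroendocrine state in the levels of these genes was not tested.

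Dlk1, H19 and Igf2bp1 rose with the mean level of the fibroblast markers, but not with each marker. The 7 of 8 such genes in the table summed to 11.02 to 239 CPM in RP lines and to 461, 53.4, 3094 and 1350 CPM in RPC1 to RPC4. In RPC3 and RPC4 most of this was Col1a1, at 2744 and 1340 CPM. Col1a2, also a collagen I gene, was at 315.9 CPM in RPC3 but at 4.19 CPM in RPC4. Pdgfra was at 0.736 and 0 CPM, and Lum and Thy1 at 0, in these lines. Pdgfra and Thy1 had their highest values in RP1, at 2.41 and 7.45 CPM, where H19 and Dlk1 had 0 counts. Pdgfrb and Fbln1 had their highest values of all lines in RPC3, at 17.4 and 15.2 CPM, and were at 1.71 and 3.72 CPM in RPC4. Pearson's r with the mean log2 level of this list was 0.72 for H19 and 0.91 for Dlk1 but 0.03 for Igf2. It was also 0.72 for Igf2bp1, 0.549 for Igf2bp3, 0.525 for Igf1r, 0.523 for Igf2bp2 and 0.24 for Igf2r. The part of other cells in the H19, Dlk1 and Igf2bp1 values was not tested.

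The locus genes stood in different relations to the receptor and mRNA-binding genes. H19 had its highest r with Igf2bp1, 0.71 (rho 0.92), at rank 383 of 12738 genes. The value was 0.43 when each line was centred on its genotype mean, and 0.74 without RPC3 and RPC4. H19 had an r of 0.60 with Igf1r, 0.63 with Igf2bp3, 0.47 with Igf2bp2 and 0.08 with Igf2r. Dlk1 had an r of 0.62 with Igf2bp1, which was 0.35 without RPC1 and RPC3, and between 0.18 and 0.47 with the other 4 genes. Igf2 was negative with all 5, from -0.48 with Igf2bp2 to -0.17 with Igf2r. Without RPC3, which combined the most Igf2 with high Igf2bp1 and Igf2bp3, the r of Igf2 was -0.81 with Igf2bp1, -0.80 with Igf2bp2, -0.70 with Igf2bp3 and -0.87 with Igf1r. Leaving out RP1 instead moved these 4 values to between -0.29 and 0.05.

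**Figure D4:**
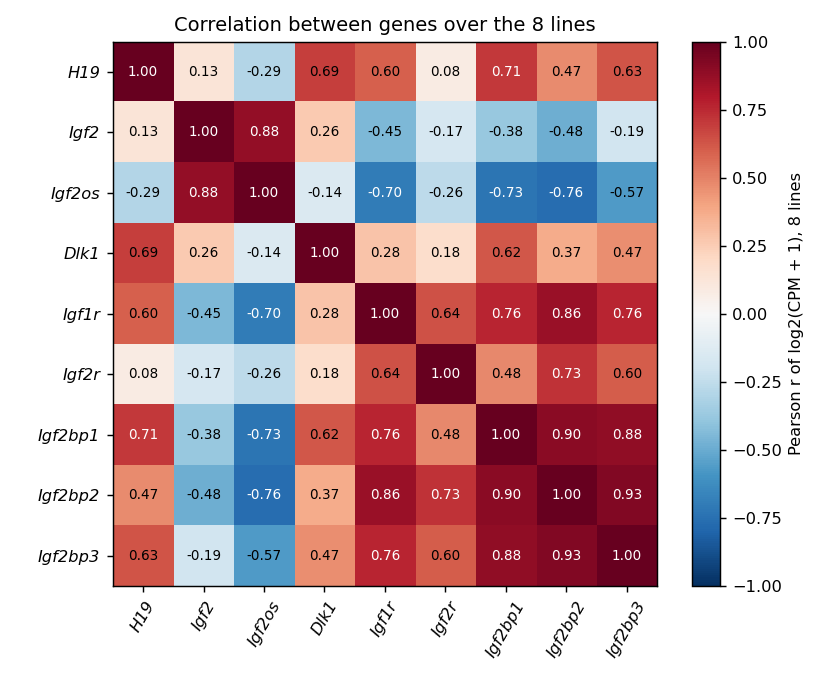
Pearson's r between the 8 genes and Igf2os over the 8 lines, from log2(CPM + 1) values, with red for positive and blue for negative r. The 3 Igf2bp genes form a block of 0.88 to 0.93 that extends to Igf1r (0.76 to 0.86), and H19 with Igf2 is near 0 (0.13). Igf2 pairs with Igf2os (0.88), which overlaps it and may share its reads.

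The genes most like H19 over the 8 lines were Fancf (r = 0.96), Zfhx4 (0.96), Golt1b (0.95), Postn (0.94) and Twist1 (0.94). Postn encodes the matrix protein periostin, at 64.1 CPM in RPC3 and 0 to 7.76 CPM elsewhere, and Twist1 a mesenchymal transcription factor, at 8.41 and 5.74 CPM in RPC3 and RPC4 and at most 1.52 CPM in other lines. Fancf of the Fanconi anemia pathway moved over a small range, from 4.16 to 9.36 CPM. All 5 genes had their highest value in RPC3 and the next in RPC4, as H19 did. For Dlk1 the most alike were Pax3 (0.97), Lrig1 (0.95), Thumpd3 (0.95), Afap1l2 (0.91) and Efemp1 (0.90). Pax3, a transcription factor of neural crest and muscle precursors, was at 14.9, 2.69, 30.4 and 2.02 CPM in RPC1 to RPC4 and at most 1.01 CPM in RP lines. Each list holds the highest values of a ranking of 12738 genes.

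Other genes of IGF signalling gave no call in either direction, in an edgeR fit that called 0 of all 12739 genes (0%). Of 22 listed genes 17 were in the table and 12 passed the filter, with a median log2 fold change of 0.69 against 0.005 for all genes tested, 9 above 0 and 3 below. Igfbp5, a binding protein that holds IGFs outside the cell, ran opposite to H19 (r = -0.86), at 496.5 and 341 CPM in RP1 and RP3 and at 0.841 and 1.55 CPM in RPC3 and RPC4. Pappa, the protease that frees IGFs from binding proteins, ran with H19 (0.80), at 22.1 and 35.8 CPM in RPC3 and RPC4 and at 2.04 to 7.93 CPM elsewhere. The adaptor Shc1 had 0.76 with H19. Closest to Dlk1 were Igfbp4 (0.67), the secreted protease gene Htra1 (0.67), which also had 0.97 with Igf2bp1, and the receptor substrate Irs1 (0.56). Igf1, the other ligand of IGF1R, was at 0.301 to 55.4 CPM, highest in RPC4, the line with the least Igf2.

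Other imprinted genes gave no call either, in the same fit with calls for 0 of all 12739 genes (0%). Of 42 listed genes, which include Rtl1 and Dio3 of the Dlk1-Meg3 cluster, 33 were in the table and 24 passed the filter, with a median log2 fold change of -0.40 against 0.005 for all genes tested, 8 above 0 and 16 below. Peg3, a paternally expressed zinc finger gene, was at 233.5 and 92.2 CPM in RP1 and RP3, at 57.5 CPM in RPC2 and at 1.40 to 31.8 CPM in the others. Its r with H19 was -0.73, and that of its neighbour Usp29 was -0.70. Sfmbt2 had 0.73 with H19. The strongest with Dlk1 were Snrpn (-0.66), Copg2 (-0.64) and Dcn (0.60), the gene of the matrix proteoglycan decorin. Dcn was the 1 gene of the 24 with every RPC line (4.84 to 14.6 CPM) above every RP line (0.301 to 3.96 CPM), against 0.989% of all genes tested, and its log2 fold change was 1.86 ± 0.78 (SE, edgeR adjusted p = 1). Kcnq1ot1 and Cdkn1c, of the imprinted domain next to H19-Igf2, had r of -0.50 and -0.49 with H19. These 2 genes were added after their values were seen. Both were closer to Igf2bp1, with r of -0.90 for Kcnq1ot1 and -0.82 for Cdkn1c. The same held for Peg3 (-0.89) and Usp29 (-0.825), but not for Sfmbt2 (0.70).

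Among genes of the let-7 axis and of fetal expression, Hmga2 was lowest and Lin28a highest in RP1, RP3 and RPC2. Lin28b and Arid3a did not follow this split. Of 11 listed genes 10 were in the table and 8 passed the filter, with a median log2 fold change of 0.05 against 0.005 for all genes tested, 4 above 0 and 4 below. Of these 8 genes 0 were called, against 0 of all 12739 genes (0%). Hmga2, a chromatin protein of embryonic cells, was at 0.438 and 1.002 CPM in RP1 and RP3, at 33.9 CPM in RPC2 and at 116 to 602 CPM in the other lines. Its r was 0.94 with Igf2bp1, 0.97 with Igf2bp2 and 0.93 with Igf2bp3, and 0.55 with both H19 and Dlk1. Lin28a, which blocks let-7 maturation, mostly took the opposite course, at 12.6, 28.9 and 12.4 CPM in RP1, RP3 and RPC2 and at 0 in RP4 and RPC3. It was also at 8.43 CPM in RPC1, where Hmga2 was at 261 CPM. Its r was -0.93 with Igf2bp3 and -0.65 with H19. Lin28b was at 0.155 to 10.95 CPM and had an r between -0.21 and 0.01 with the 3 Igf2bp genes. Afp, the fetal serum protein, had 0.76 with Dlk1 and 0.62 with H19, and Dicer1, which cuts miRNA precursors, had -0.80 with Dlk1.

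**Figure D5:**
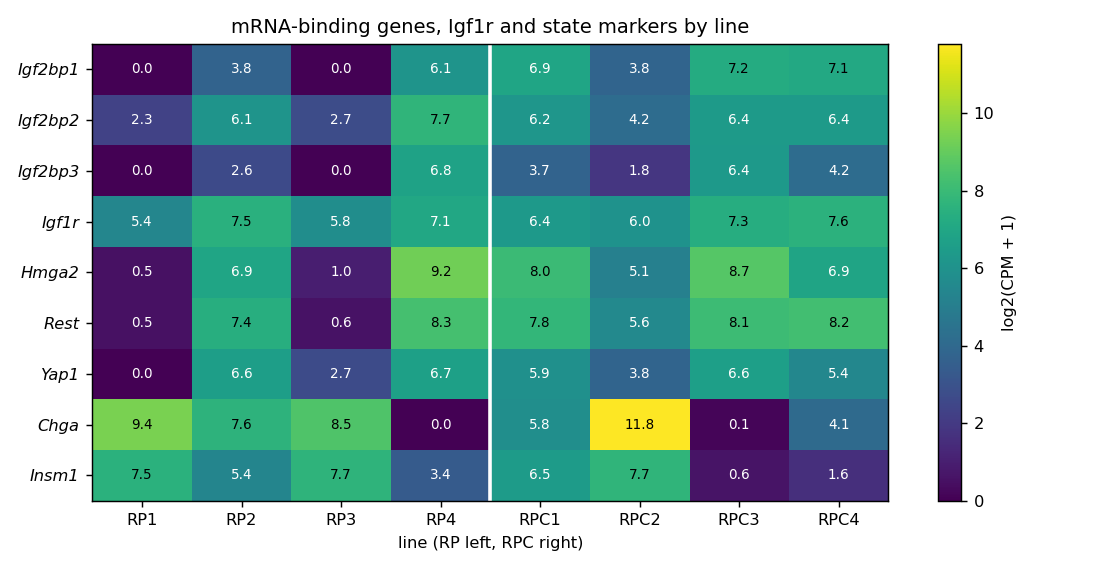
Levels as log2(CPM + 1), by color and number, of the mRNA-binding genes, Igf1r, Hmga2 and 4 markers of cell state in the 8 lines. RP1, RP3 and RPC2 have the lowest values of the Igf2bp2, Hmga2 and Rest rows and the highest of the Chga row.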

How the data were processed

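The authors prepared 3′ mRNA libraries from the 8 lines, aligned reads to GRCm39 with STAR 2.7.10a and quantified genes with Salmon 1.5.2. The estimated counts that the authors deposited are unnormalized whole numbers for each gene in each line, and they entered the fits as they were. A deposited comparison made with DESeq2 1.36.0 (fold changes, p-values) was not used. Groups came from the sample labels.

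RPC was compared with RP lines by the quasi-likelihood test of edgeR 4.0.16 (R 4.3.3) after TMM scaling and filterByExpr, with 1 fit over all genes and Benjamini-Hochberg adjustment over all genes tested. DESeq2 1.42.0, other scalings and filters, a replicate block and leaving out each line were alternatives. Both tools were also run on simulated counts with the same dispersion for all genes, which does not check the calls in these lines. Correlations used log2(CPM + 1) over 8 lines. p-values measure the spread between these lines.

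The members and gene lists were chosen with earlier results of these data known. Named were the members, the targeted genes, the 5 genes most like H19 and Dlk1, per list the 3 with the highest absolute r with each, and filtered neighbours within 500 kb. Dlk1 took the place of Meg3, not analysed here, after the table was seen. Also chosen after values were seen were Airn, Igf1, Dio3, Lin28b, and the marker genes shown. Identifiers matched GENCODE M39 (GRCm39) for 99.3% of genes, and let-7a came from the RefSeq table for GRCm38.p6. Canonical transcripts gave the 3′ UTRs, and similar length meant within 1.25 times.

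Same-numbered lines of both genotypes came from different mice, and their deviations from the group means had r of -0.019, -0.439, -0.533 and 0.364. The main fit therefore did not treat the numbers as pairs. A batch shared by number was not tested.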

Additional observations from a re-analysis of the deposited data

Results flagged for a closer look

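In the 16 groups of 4 lines (8 genes in RP and in RPC lines), 4 had 1 line far from the others. The gap of that line to its nearest neighbour was above 0.829 of the range of the group. About 1 in 20 groups of 4 normally distributed values would meet this criterion. H19 was at 167.3 CPM in RPC3, against 28.6 CPM in the next RPC line. Igf2 was at 502 CPM in RPC3 too, against 25.4 CPM in RPC1. Dlk1 was at 1.319 CPM in RP2, on 13 counts, where the other RP lines had 0 or 1 count. Igf2bp3 was at 109.2 CPM in RP4, against 5.18 CPM in RP2. CPM were compared on the linear scale.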

How the results depend on the processing

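When replicate numbers entered the fit as a block, the log2 fold change turned sign for Igf2 (-0.718), Igf2bp2 (1.187) and Igf2bp3 (2.627), and it was 4.963 for H19. None of these 3 was called in either fit, and no pair of numbers shared a mouse. Counts of calls were 0 higher and 0 lower in every edgeR fit run, against 11 higher and 2 lower with DESeq2, H19 among them with an adjusted p of 0.0156. The 3 gene lists had 0 calls with edgeR, DESeq2, the block and no count filter. Leaving out 1 line at a time, the fold change spanned -3.128 to 1.182 for Igf2, -0.403 to 0.003 for Igf2r, -0.560 to 1.339 for Igf2bp2 and -1.424 to 4.040 for Igf2bp3. The sign turned without RP2, RP4 or RPC3 for Igf2, without RPC2 for Igf2r, without RP4 or RPC2 for Igf2bp2, and without RP4, RPC1, RPC2 or RPC4 for Igf2bp3. The sign held for H19 (3.877 to 6.442), Dlk1 (4.006 to 7.921), Igf1r (0.027 to 0.708) and Igf2bp1 (1.98 to 4.665). The r of H19 with Igf2 spanned -0.724 (without RPC3) to 0.387 (without RPC4), and it was -0.056 with a pseudocount of 0.1 and 0.352 within genotypes. With 0 to 13 counts of H19 and Dlk1 in RP lines, the size of their fold changes is poorly fixed at this depth.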
